A study of Mus musculus with 6 samples.

Results

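MHC class I antigen presentation was described through 9 genes, H2-K1, H2-D1, H2-T23, B2m, Tap1, Tap2, Tapbp, Nlrc5 and Erap1, which were found by symbol among the 28752 genes of the deposited table. All 9 were listed with reads in every sample, and all 9 passed the filter on low counts. RNA sequencing had been performed on 6 samples of mouse intestinal crypt stem cells, 3 with vector and 3 with circEZH2_005 overexpression from an adenovirus. Every sample, vector samples included, was labelled as subjected to hypoxia/reoxygenation (H/R), with 4 h at 2% O2 after 72 h of infection, so no sample without H/R or without infection was compared here. According to the methods of the study, Lgr5+ intestinal stem cells (ISCs) from Lgr5-GFP mice were sorted by flow cytometry for GFP and then grown into crypt-villus organoids. Its account of the RNA sequencing calls the cells intestinal crypt cells and does not repeat the sort. The vector samples are labelled WT by genotype and the others circEZH2_005 overexpression. The study describes its replicates as independent biological ones. The sample labels do not say which mice or cultures the 6 samples came from. The p-values set the difference between groups against the spread between samples of a group, which may not be the spread between mice. Libraries were made with oligo(dT) beads from polyadenylated RNA, and the circular RNA itself was not analysed here.

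MHC class I molecules display short peptides from the inside of a cell to CD8+ T cells. The proteasome cuts proteins into peptides, the TAP transporter carries them into the endoplasmic reticulum, aminopeptidases trim them there, and a loading complex places them on a heavy chain that is paired with beta-2-microglobulin. Interferon gamma and the coactivator NLRC5 are known to raise transcription of most of these genes, and intestinal epithelial cells carry class I molecules on their surface.

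Short windows upstream of the members' start sites, or across the start in Erap1, are shown because the known class I regulators, IRF and NF-kB proteins, bind motifs of this kind in class I promoters. The sequences are from RefSeq on GRCm38.p6, which held promoters for 7 of the 9 members and not for Tap2 and Nlrc5. Each promoter covered 250 bases before and 50 after a start. Both strands were searched, and the windows are printed 5′ to 3′ on the strand of the gene. Capitals mark the match to the IRF core AANNGAAA in H2-K1 and H2-D1 and to the longer ISRE pair (GAAA, any 2 bases, then GAAA), which contains the IRF core, in H2-T23, B2m and Erap1, or to their reverse complements.
H2-K1, chr17:34000419-34000448, minus strand: catctccacagTTTCACTTctgcacctaac
H2-D1, chr17:35262933-35262962, plus strand: catctcctcagTTTCACTTctgcacctaac
H2-T23, chr17:36032806-36032835, minus strand: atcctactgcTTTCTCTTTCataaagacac
B2m, chr2:122147538-122147567, plus strand: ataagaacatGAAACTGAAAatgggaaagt
Erap1, chr13:74639839-74639868, plus strand: ccaccttcacTTTCACTTTCggtcccgggc

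The match began 90 or 104 bases upstream of the start in H2-K1, which has a pair of RefSeq starts, and 150, 124, 139 and 4 bases upstream in H2-D1, H2-T23, B2m and Erap1. For H2-D1, H2-T23 and Erap1 these windows lie inside the gene interval of the deposited table, which begins farther upstream. The IRF core was found in 5 of the 7 members, against 23.9% of 32851 mouse promoters of the same length, and the pair in 3 of the 7, against 3.44%.

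A second set is shown because H2-K1 and H2-D1 share it next to the IRF core. Capitals mark the NF-kB type motif, GGGA followed by any 4 bases and CC, read on either strand.
H2-K1, chr17:34000438-34000467, minus strand: cccagggctgGGGATTCCCCatctccacag
H2-D1, chr17:35262914-35262943, plus strand: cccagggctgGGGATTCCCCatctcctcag
B2m, chr2:122147551-122147580, plus strand: actgaaaatgGGAAAGTCCCtttgtaacct

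This motif was found in 3 of the 7 members, against 20.7% of all promoters. CCAAT, the letters bound by NF-Y, was found in 6 of the 7 (all but Erap1), against 37.4% of promoters. A match is a description of letters in this window, and binding was not measured in these samples.

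Counts summed to between 71506487 and 79919893 per sample. Vector sample 2 stood apart from the other vector samples in the class I genes. All 9 members had their highest vector level in sample 2, which happened in 38.6% of all genes tested, and its level was between 1.10 and 2.04 times the mean of vector samples 1 and 3 for the members, against a median of 0.996 over all genes. Results are therefore also given without it. This sample was picked from the members' own values. Leaving it out raises their log2 fold changes, so those fits are a description and no separate support. Epithelial markers were present, in a list of 16 genes of epithelium in general, of crypt stem cells and of differentiated lineages. They summed to between 12458 and 13609 CPM (read counts scaled by library size and TMM factor) in vector samples and to between 13003 and 14948 CPM in circEZH2_005 samples. The sum is no measure of stem cells alone. Among the 16 genes Krt8, a keratin of simple epithelia, was higher (log2 fold change 0.57, standard error (SE) 0.10, adjusted p = 0.0301), and the stem cell genes Lgr5 (-0.88, SE 0.18, adjusted p = 0.0434) and Smoc2 (-0.81, SE 0.11, adjusted p = 0.0203) were lower in circEZH2_005 samples by the quasi-likelihood test of edgeR, adjusted by Benjamini-Hochberg over all genes tested. By this test 1 of the 16 genes rose, against 2.69% of all genes, and 2 fell, against 0.986%. The other 13, further stem cell genes among them, were not called. Over the 16 genes, 10 log2 fold changes were positive and 6 negative. Lgr5 itself had 16.1, 12.1 and 18.3 CPM in vector samples and 8.55, 9.10 and 7.70 CPM in circEZH2_005 samples.

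Of the 9 members, 8 were expressed at a higher level in every circEZH2_005 sample than in any vector sample, and 5 of the 9 rose with an adjusted p-value under 0.05: H2-K1, H2-D1, H2-T23, B2m and Tapbp. Over all 18348 genes tested, 2.69% rose by this criterion, 0.986% fell, and 16.4% lay above the vector samples without overlap. No member fell, with 0 lower at an unadjusted p-value under 0.05 in edgeR and 0 in DESeq2. The median log2 fold change of the 9 members was 0.83, beside a median of 0.00 over all genes. At a fold change over 2 with an unadjusted p-value under 0.05, the fold change criterion of the study with its general threshold, 2 members (H2-T23 and Nlrc5) were higher, against 6.22% of all genes. In these bulk samples, fewer cells of a type and less RNA per cell cannot be told apart.

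The calls rested on few samples. Without vector sample 2, 8 of the 9 members rose, with log2 fold changes between 0.81 and 1.59, and Erap1 stood at 0.16. Without circEZH2_005 sample 1, 4 members were called, and without vector sample 1, vector sample 3, circEZH2_005 sample 2 or circEZH2_005 sample 3, 0 members were called by edgeR. In each of these fits, 8 members were higher at an unadjusted p-value under 0.05, and all 9 log2 fold changes remained positive. With all 6 samples, 4346 of the 18348 genes tested passed this unadjusted threshold in either direction, and 9174 had a positive log2 fold change. With DESeq2, 8 members were called, but DESeq2 also called more of all genes than edgeR. In simulated data 34.7% of its calls were unchanged genes, against 12.8% for edgeR. Counts over all genes with DESeq2 and with 1 sample left out are given in the section on processing.

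**Figure D1:**
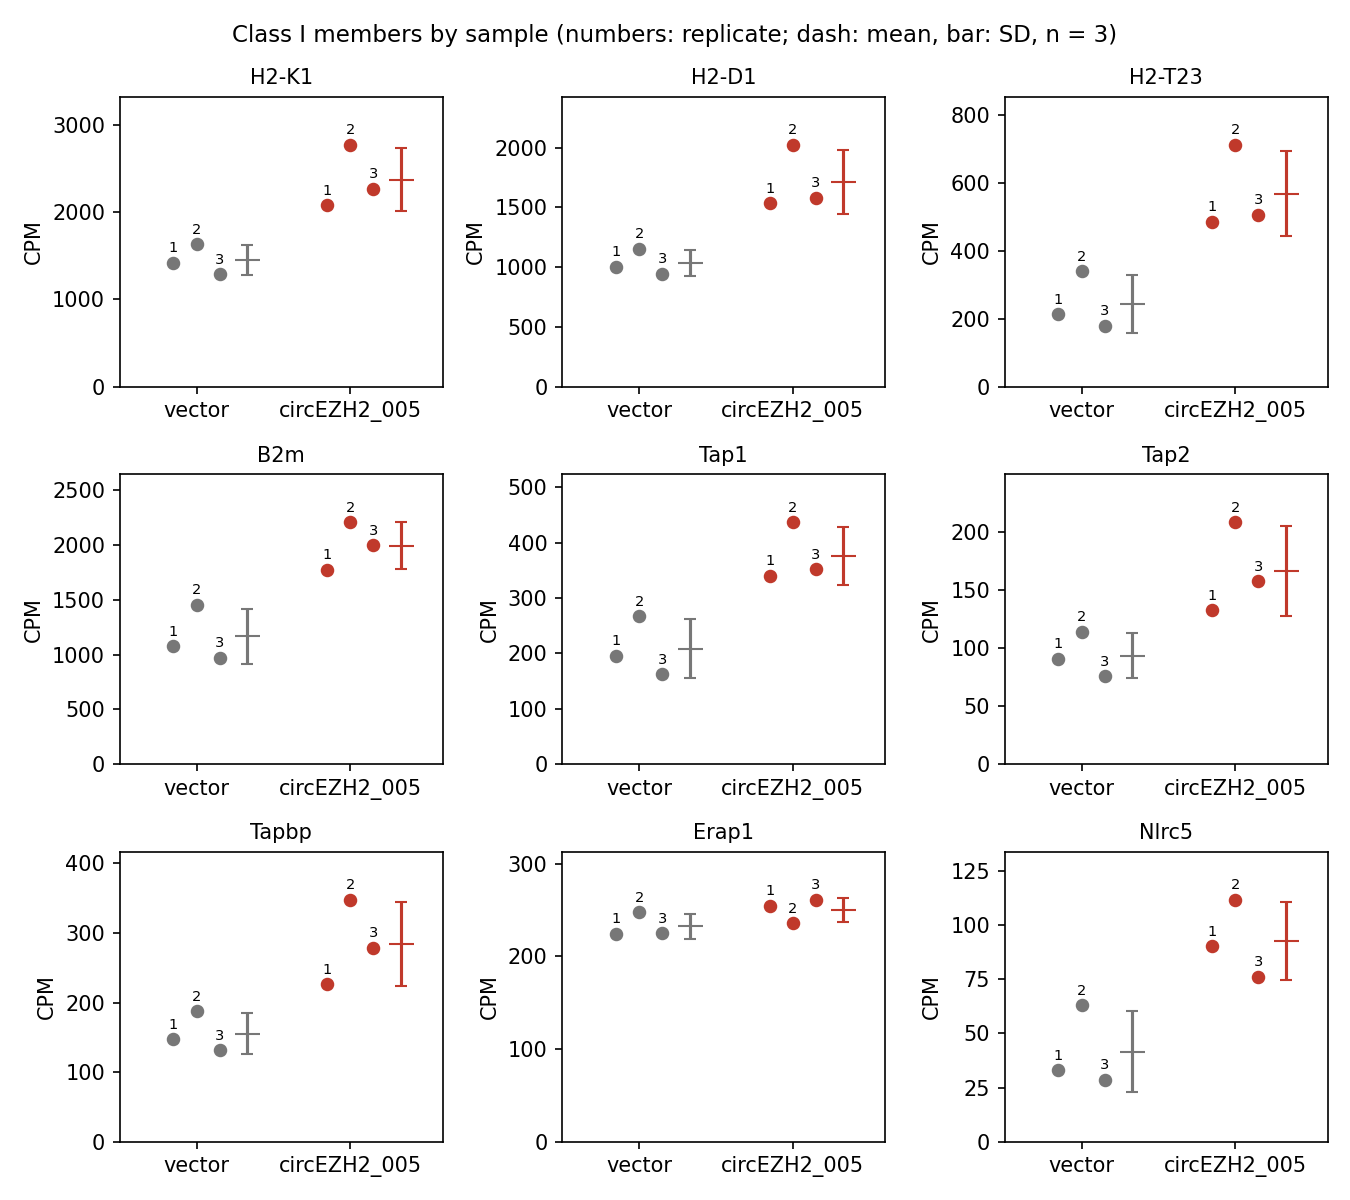
Level of the 9 members in each sample, in CPM from 0 on each axis, with the mean and SD of each group (n = 3) beside the points. In 8 panels all circEZH2_005 points lie above all vector points, vector sample 2 is the highest vector point in all 9, and the groups overlap for Erap1.

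The classical heavy chains, which bind the peptide and are read by the T cell receptor, are encoded by H2-K1 and H2-D1. H2-K1 (ENSMUSG00000061232, chromosome 17, 33996017 to 34000347, minus strand, GRCm38) was measured at 1418, 1631 and 1290 CPM in vector samples 1 to 3 and at 2081, 2768 and 2264 CPM in circEZH2_005 samples 1 to 3. The lowest circEZH2_005 sample was 1.28 times the highest vector sample. The mean rose from 1446 ± 173 to 2371 ± 356 CPM (SD, n = 3), a fold change of 1.64 (log2 0.71, SE 0.14, adjusted p = 0.0424 by edgeR).

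H2-D1 (ENSMUSG00000073411, chromosome 17, 35262730 to 35267499, plus strand) stood at 1005, 1155 and 946 CPM in vector samples and at 1533, 2023 and 1579 CPM in circEZH2_005 samples, again without overlap. It rose 1.65-fold (log2 0.73, SE 0.14, adjusted p = 0.0389 by edgeR). The ratio of H2-D1 to H2-K1 in FPKM (fragments scaled by transcript length and by library) was 0.817 ± 0.017 in vector samples and 0.822 ± 0.024 in circEZH2_005 samples (SD, n = 3), with overlap between the groups (two-sided exact permutation p = 0.9).

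H2-T23 encodes Qa-1, a nonclassical heavy chain that is recognised by inhibitory receptors on natural killer and CD8+ T cells. This gene (ENSMUSG00000067212, chromosome 17, 36029773 to 36032855, minus strand) had 213, 341 and 179 CPM in vector samples and 487, 712 and 507 CPM in circEZH2_005 samples. No other member had as wide a gap, the lowest circEZH2_005 sample being 1.43 times the highest vector sample. The fold change was 2.33 (log2 1.22, SE 0.26, adjusted p = 0.0477 by edgeR), and without vector sample 2 the log2 fold change was 1.54. Relative to H2-K1 it stood at 0.153, 0.212 and 0.141 in FPKM in vector samples and at 0.238, 0.262 and 0.228 in circEZH2_005 samples. These ratios did not overlap, and 3 samples against 3 cannot give an exact permutation p under 0.1, which was the value here (0.16 after adjustment over the 8 ratios compared).

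B2m, the light chain needed by nearly all class I heavy chains to reach the cell surface, was the member with the highest level per length. It (ENSMUSG00000060802, chromosome 2, 122147686 to 122153083, plus strand) was measured at 1075, 1454 and 973 CPM in vector samples and at 1775, 2207 and 2000 CPM in circEZH2_005 samples. The groups did not overlap, and B2m rose 1.71-fold (log2 0.77, SE 0.17, adjusted p = 0.0496 by edgeR). Of 12 alternative fits, B2m was called in 2. The ratio of B2m to the sum of H2-K1 and H2-D1 in FPKM ranged from 1.40 to 1.69 in vector samples and from 1.49 to 1.68 in circEZH2_005 samples, which overlap (exact permutation p = 0.6).

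Tap1 and Tap2 together encode the peptide transporter. Tap1 (ENSMUSG00000037321, chromosome 17, 34187553 to 34197225, plus strand) had 196, 267 and 162 CPM in vector samples and 340, 437 and 352 CPM in circEZH2_005 samples. Tap2 (ENSMUSG00000024339, chromosome 17, 34203527 to 34216321, plus strand) had 90.7, 114 and 76.0 CPM in vector samples and 132, 208 and 158 CPM in circEZH2_005 samples. Neither transporter gene overlapped between the groups, and neither passed the adjusted threshold. The log2 difference was 0.85 for Tap1 (SE 0.19, adjusted p = 0.0541 by edgeR) and 0.83 for Tap2 (SE 0.20, adjusted p = 0.0612 by edgeR). Without vector sample 2 both were called, at 1.07 and 1.00, and each was called in 3 of 12 alternative fits. Tap1 shares up to 212 exonic bases with Psmb9 on the other strand, and no source used here says that reads were counted by strand.

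Tapbp encodes tapasin, which bridges the transporter and the heavy chain during loading. Its CPM (ENSMUSG00000024308, chromosome 17, 33915899 to 33926197, plus strand) was 147, 188 and 131 with vector and 226, 348 and 279 with circEZH2_005 overexpression, with no overlap. Tapbp rose 1.83-fold (log2 0.87, SE 0.19, adjusted p = 0.0492 by edgeR), with calls in 5 of 12 alternative fits. Its exons share up to 88 bases with Zbtb22 on the same strand.

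Erap1, the aminopeptidase that trims peptides inside the endoplasmic reticulum, was the exception among the members. It (ENSMUSG00000021583, chromosome 13, 74639568 to 74693201, plus strand) was measured at 224, 248 and 225 CPM in vector samples and at 254, 236 and 261 CPM in circEZH2_005 samples. The groups overlapped, since circEZH2_005 sample 2 lay below vector sample 2. Its fold change on the log2 scale was 0.11 (SE 0.08, adjusted p = 0.495 by edgeR), between 0.08 and 0.16 over the 6 fits that left out a sample, and it was called in 0 of 12 alternative fits. The ratio of Erap1 to Tap1 in FPKM was between 0.697 and 1.04 in vector samples and between 0.406 and 0.562 in circEZH2_005 samples, with no overlap (exact permutation p = 0.1, adjusted 0.16). Erap1 shares up to 834 exonic bases with Cast on the other strand, a gene with a total count of 75854 beside 108815 for Erap1, so reads of either gene may be counted in the other.

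Nlrc5, the class I transactivator, had the lowest level of the members. It (ENSMUSG00000074151, chromosome 8, 94434356 to 94527272, plus strand) stood at 33.1, 63.1 and 28.7 CPM in vector samples and at 90.3, 112 and 76.2 CPM in circEZH2_005 samples. The groups did not overlap, but vector sample 2 was 2.04 times the mean of the other vector samples, the widest such gap of any member. On the log2 scale Nlrc5 was higher by 1.16 (SE 0.30, adjusted p = 0.0699 by edgeR), which did not pass the threshold. Without vector sample 2 it was 1.59 and passed, and Nlrc5 was called in 3 of 12 alternative fits.

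Levels of different genes were compared per length, in FPKM. In vector samples the order of means was B2m (1257 ± 287, SD, n = 3), H2-K1 (456 ± 58.3), H2-D1 (372 ± 42.2), H2-T23 (78.4 ± 28.2), Tapbp (39.6 ± 7.80), Tap1 (35.3 ± 9.40), Erap1 (29.5 ± 2.03), Tap2 (22.9 ± 4.90) and Nlrc5 (4.54 ± 2.10). The ranges of neighbours overlapped from H2-K1 to H2-D1 and along the run from Tapbp to Tap1, Erap1 and Tap2. In circEZH2_005 samples the order was B2m (2012 ± 114), H2-K1 (699.7 ± 74.6), H2-D1 (576 ± 70.0), H2-T23 (170 ± 30.7), Tapbp (67.7 ± 11.1), Tap1 (59.7 ± 6.18), Tap2 (38.0 ± 7.01), Erap1 (29.99 ± 2.79) and Nlrc5 (9.48 ± 1.72). Here the ranges overlapped between H2-K1 and H2-D1 and between Tapbp and Tap1. Erap1 and Tap2 changed places, and their ranges met without overlap, from 27.0 to 32.6 FPKM for Erap1 and from 32.6 to 45.9 FPKM for Tap2.

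The members were also ordered alike across samples. Within the circEZH2_005 group, sample 2 was highest for 8 of the 9 members (34.1% of all genes tested), and in the vector group sample 3 was lowest for 8 of the 9 (30.8% of all genes). Across the 6 samples, the tested genes outside the members whose log2 CPM followed the mean standardized profile of the members most closely were Rnf114 (Pearson r = 0.999), Gbp10 (0.998), Irf1 (0.997), Psmb8 (0.997) and Smad6 (0.997). They are given as a description, from 11593 genes averaging at least 1 FPKM and over 6 points that fall into 2 groups. Gbp10 is an interferon-induced guanylate-binding protein, and Psmb8 is a subunit of the immunoproteasome.

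Leukocyte markers moved with the class I genes. The 25 markers, which cover T cells, natural killer cells, B cells and myeloid cells, all had reads in every sample and summed to 216, 743 and 267 CPM in vector samples 1 to 3 and to 2021, 1505 and 1089 CPM in circEZH2_005 samples 1 to 3. Of these, 16 lay above the vector samples without overlap, against 16.4% of all genes, and the median log2 fold change of the 25 was 1.73. The fold change of 2 with an unadjusted p-value under 0.05 was passed by 16, against 6.22% of all genes. By adjusted p-value 1 rose, against 2.69% of all genes: Itgax, an integrin of dendritic cells and macrophages (1.86, SE 0.34, adjusted p = 0.0362 by edgeR). Gzmb, a granule protease of cytotoxic lymphocytes, had 36.5, 170 and 45.1 CPM in vector samples and 544, 394 and 273 CPM in circEZH2_005 samples (log2 2.26, SE 0.59, adjusted p = 0.0728 by edgeR), and Lyz2, a lysozyme of myeloid cells, had the smallest difference (0.18, SE 0.45). The myeloid genes Csf1r, Adgre1, Cd68, Itgam and Lyz2 overlapped between the groups, whereas Fcer1g, like Itgax, did not. The T cell genes Cd3d, Cd3e, Cd3g, Cd8a, Cd8b1, Cd4 and Trac lay above the vector samples without overlap, and none of them passed the adjusted threshold. Vector sample 2 was the highest vector sample for 22 of the 25 markers and for all 9 members. Among circEZH2_005 samples, sample 1 was highest for 23 of the 25 markers, whereas sample 2 was highest for 8 of the 9 members. The 9 members summed to 4402, 5461 and 4011 CPM in vector samples and to 6919, 9051 and 7476 CPM in circEZH2_005 samples. The methods of the study describe a sort for Lgr5-GFP before the organoids were grown. The part of leukocyte RNA in the class I result was not tested.

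**Figure D2:**
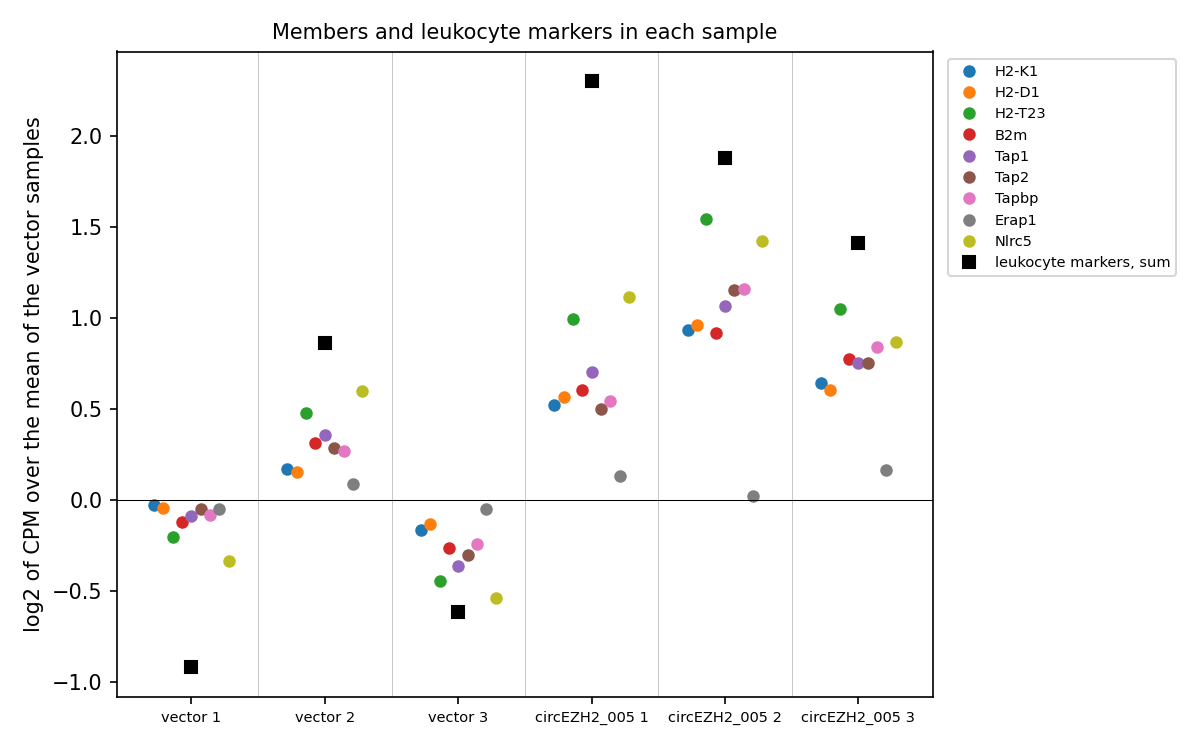
Each member (circles) and the sum of the 25 leukocyte markers (squares) in the 6 samples, as log2 of CPM over the mean of the 3 vector samples. Members and markers both have their highest vector value in sample 2, whereas in the circEZH2_005 group the marker sum is highest in sample 1 and most members in sample 2.

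Stromal markers were low in every sample, with sums of 9.27, 11.5 and 11.2 CPM over 12 genes in vector samples and 19.3, 11.3 and 7.52 CPM in circEZH2_005 samples. Of 10 tested, 1 rose, against 2.69% of all genes: the endothelial and leukocyte adhesion gene Pecam1 (1.93, SE 0.36, adjusted p = 0.0377 by edgeR). Acta2, the smooth muscle actin, was the lowest of the list (-0.54, SE 0.79).

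Other class I heavy chains of mouse, including the Q, T and M region genes and the class I-like genes, had a median log2 difference of 0.74 over 17 tested of 20 listed. In 11 of the 17 the groups did not overlap, all 11 higher in circEZH2_005 samples, against 16.4% of all genes. By adjusted p-value 3 rose, against 2.69% of all genes. H2-Q4 had 79.5, 116 and 74.9 CPM in vector samples and 169, 213 and 158 CPM in circEZH2_005 samples (log2 1.00, SE 0.19, adjusted p = 0.0377 by edgeR). H2-T10 (0.80, SE 0.16, adjusted p = 0.0425) and H2-M3, which presents formylated peptides (0.89, SE 0.19, adjusted p = 0.0477), were the others called by edgeR. The ends of the list were Mr1, which presents vitamin metabolites to MAIT cells (1.95, SE 0.53, adjusted p = 0.0786 by edgeR, at 0.111, 0.482 and 0.268 CPM in vector samples), and Hfe, a regulator of iron uptake (-0.54, SE 0.34, adjusted p = 0.393). The windows below are shown because H2-Q4 and H2-M3 carry the same IRF core, in capitals, as H2-K1 and H2-D1 (RefSeq, GRCm38.p6).
H2-Q4, chr17:35379453-35379482, plus strand: catctccccagTTTCACTTctgctcctaac
H2-M3, chr17:37270122-37270151, plus strand: ttcctctgaggTTTCACTTctctgtaactc

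Heavy chain genes are close copies of each other, and reads may be shared among them. In windows of 100 bases, 4.09% of the transcript sequence of H2-D1 and 7.28% of that of H2-T23 also occurred in GENCODE M21 transcripts of other genes, against 0% for H2-K1, B2m, Tap1, Tap2, Nlrc5 and Erap1.

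A list of endoplasmic reticulum chaperones, oxidoreductases and translocon subunits holds a few proteins of the peptide-loading complex (calreticulin and Pdia3) or of heavy chain folding (calnexin) among general folding and translocation genes. Of its 13 genes tested, 1 rose and 1 fell by adjusted p-value, against 2.69% and 0.986% of all genes. Without overlap, 8 lay below the vector samples, against 14.2% of all genes, and 1 lay above them, against 16.4%. The median log2 fold change was -0.21. Calr (-0.17, SE 0.09, adjusted p = 0.328 by edgeR) and Pdia3 (-0.21, SE 0.08, adjusted p = 0.166 by edgeR), which belong to the loading complex, did not pass the test. Pdia6, a protein disulfide isomerase that is not part of that complex, fell from 413, 418 and 427 CPM to 335, 307 and 304 CPM (-0.41, SE 0.08, adjusted p = 0.0412 by edgeR). Tapbpl, which encodes the tapasin-related peptide editor TAPBPR, rose from 50.2, 62.5 and 44.0 CPM to 74.9, 101 and 85.2 CPM (0.74, SE 0.16, adjusted p = 0.0491 by edgeR). Calr and Pdia3 were named after their values were seen.

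Of 14 tested genes of peptide generation (proteasome subunits, proteasome activators and peptidases), 2 rose, both of them interferon-inducible, and 0 fell by adjusted p-value. Over all genes these shares were 2.69% and 0.986%. At an unadjusted p-value under 0.05 in edgeR, 5 were higher and 1 lower. Of all 18348 genes tested, 4346 passed this unadjusted threshold in either direction. DESeq2, which called more of all genes than edgeR, called 5 higher and 0 lower by adjusted p-value. The median log2 fold change was 0.10. Psme1, a subunit of the PA28 activator, had 182, 221 and 170 CPM in vector samples and 284, 290 and 306 CPM in circEZH2_005 samples (0.62, SE 0.11, adjusted p = 0.0349 by edgeR). Psmb10, an immunoproteasome subunit, had 145, 170 and 133 CPM and then 213, 230 and 222 CPM (0.57, SE 0.11, adjusted p = 0.0372 by edgeR). Psmb8 (0.58, adjusted p = 0.0516) and Psmb9 (0.49, adjusted p = 0.119) did not pass in edgeR, and Thop1, a peptidase of the cytosol, was the lowest of the list (-0.24, adjusted p = 0.222).

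Within each library the immunoproteasome subunits were also set against the constitutive subunits whose place they take. The FPKM ratio of Psmb8 to Psmb5 was 0.742 ± 0.051 in vector samples and 1.21 ± 0.11 in circEZH2_005 samples (SD, n = 3). For Psmb9 to Psmb6 it was 1.03 ± 0.18 and 1.40 ± 0.05, and for Psmb10 to Psmb7 it was 2.37 ± 0.04 and 3.78 ± 0.48. None of these ratios overlapped between the groups, each at the smallest exact permutation p that 3 against 3 allows, 0.1 (0.16 adjusted over the 8 ratios).

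Among 25 tested genes of class I induction (interferons, their receptors and kinases, IRF and other factors downstream of them, and the RFX, NF-Y and NF-kB factors), 2 rose and 0 fell by adjusted p-value. Over all genes these shares were 2.69% and 0.986%. The median log2 fold change was 0.20. At an unadjusted p-value under 0.05 in edgeR 11 were higher and 2 lower. Of all 18348 genes tested, 4346 passed this unadjusted threshold in either direction. DESeq2, which called more of all genes than edgeR, called 5 higher and 0 lower by adjusted p-value. Without overlap, 12 lay above the vector samples, against 16.4% of all genes, and 1 lay below, against 14.2%. Irf1, a factor that binds the IRF core, had 180, 278 and 151 CPM in vector samples and 363, 494 and 445 CPM in circEZH2_005 samples (1.10, SE 0.23, adjusted p = 0.0472 by edgeR). Irf8, an interferon regulatory factor best known in myeloid and B cells, had 127, 176 and 121 CPM and then 247, 339 and 301 CPM (1.06, SE 0.17, adjusted p = 0.0286 by edgeR). Ifng, the gene of interferon gamma, which lymphocytes make, had 0.193, 1.16 and 0.102 CPM in vector samples and 4.85, 3.99 and 1.10 CPM in circEZH2_005 samples. Its groups overlapped, since vector sample 2 lay above circEZH2_005 sample 3, and its log2 fold change of 2.77 (SE 0.91, adjusted p = 0.122 by edgeR) did not pass. Without vector sample 2 it was 4.48 (adjusted p = 0.0159 by edgeR), and Ifng was called in 1 of 12 alternative fits. Rfxap, a subunit of the RFX complex at class I and class II promoters, was the lowest of the list (-0.37, SE 0.14, adjusted p = 0.161 by edgeR).

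**Figure D3:**
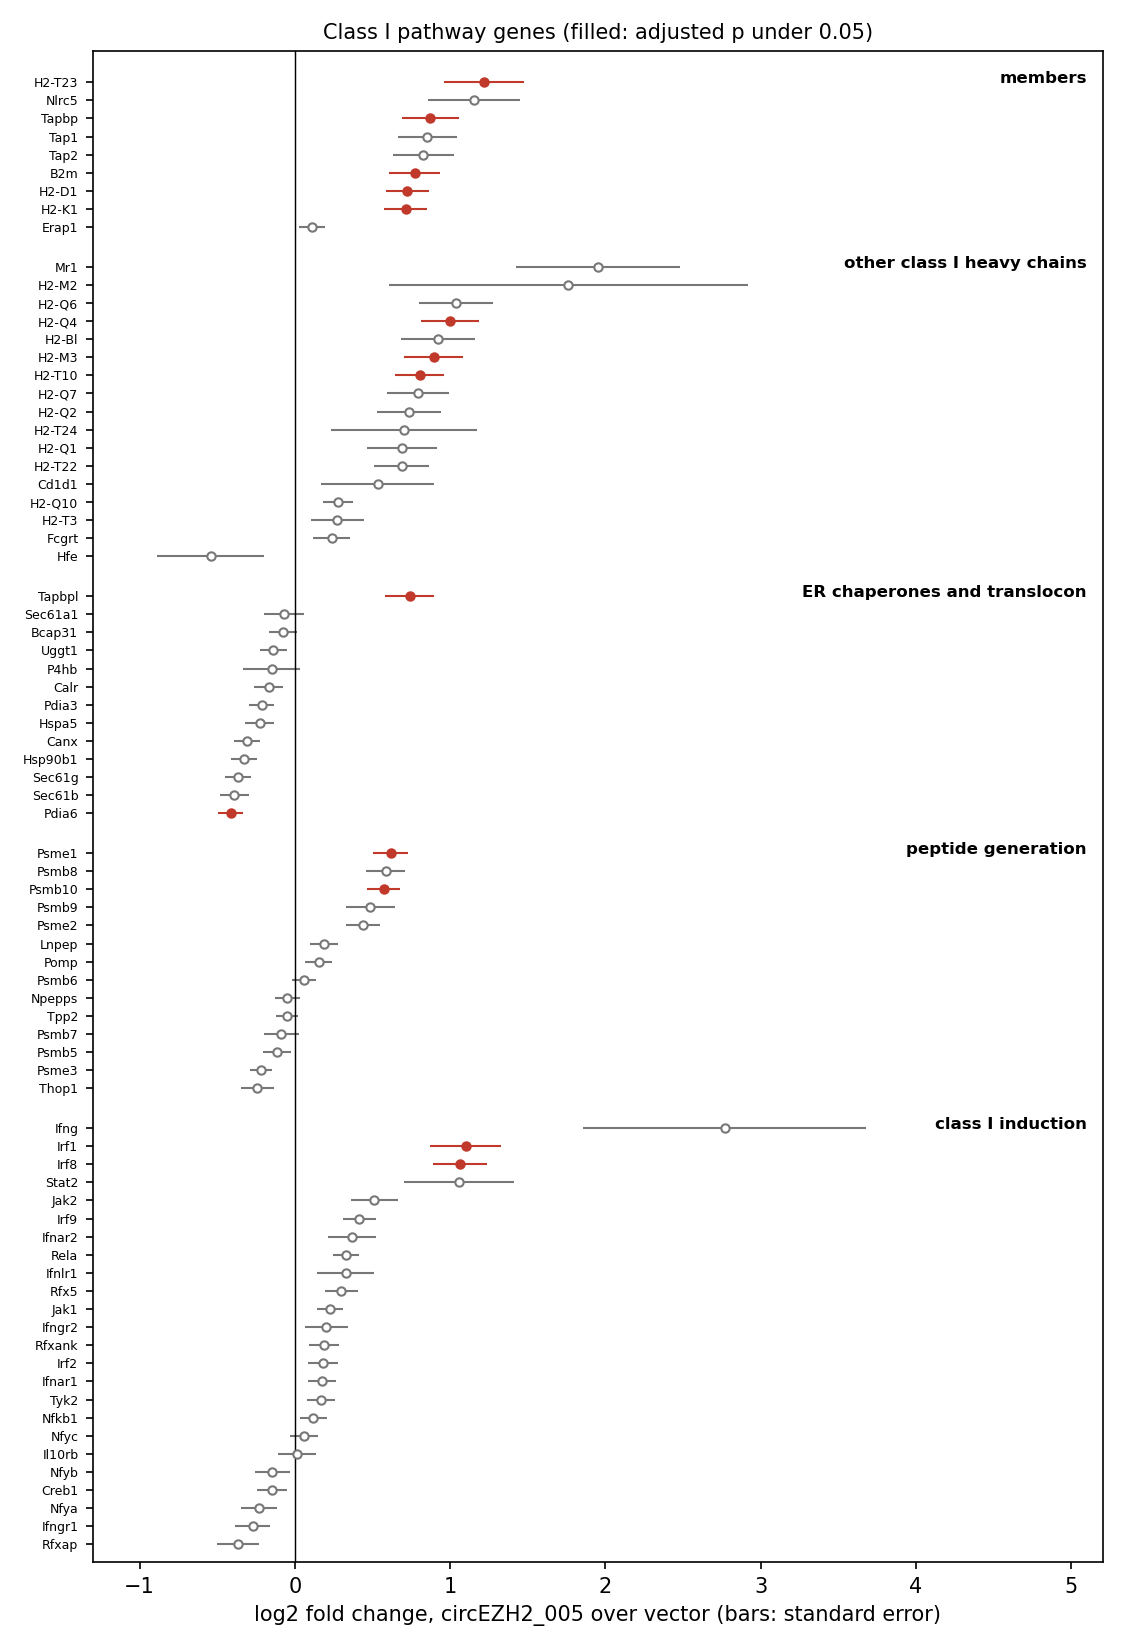
Log2 fold change of circEZH2_005 over vector samples with its standard error for the members and the tested genes of 4 pathway lists reported here, filled where the adjusted p-value was under 0.05 (edgeR). Members and other heavy chains lie mostly to the right of 0, the endoplasmic reticulum (ER) chaperones and translocon genes mostly to the left, of which 1 was called lower, and the other lists on both sides.

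The 6 members on chromosome 17 lie in the mouse MHC, from the start of Tapbp at 33915899 to the end of H2-T23 at 36032855, a span of 2.117 Mb on GRCm38. Among 127 tested genes of this span that are not members, 11 rose (8.66%, against 2.69% of all genes) and 2 fell (against 0.986% of all genes). Their median log2 fold change was 0.15, against 0.83 for the members. The smallest adjusted p-values belonged to Hspa1b, a heat shock protein, at 7.89, 11.8 and 10.6 CPM in vector samples and 2.35, 3.60 and 3.22 CPM in circEZH2_005 samples (-1.73, adjusted p = 0.0185 by edgeR). Gpsm3, a regulator of G protein signalling, stood at 2.10 (adjusted p = 0.0204) and the complement gene C2 at 1.31 (adjusted p = 0.0239). The class II chains H2-Ab1 (1.53, adjusted p = 0.0214) and H2-Eb1 (1.35, adjusted p = 0.0239), which present peptides to CD4+ T cells, rose as well. Of the 127 neighbours, 84 had a positive and 43 a negative log2 fold change. Without overlap, 37 lay above the vector samples, against 16.4% of all genes, and 10 lay below, against 14.2%.

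**Figure D4:**
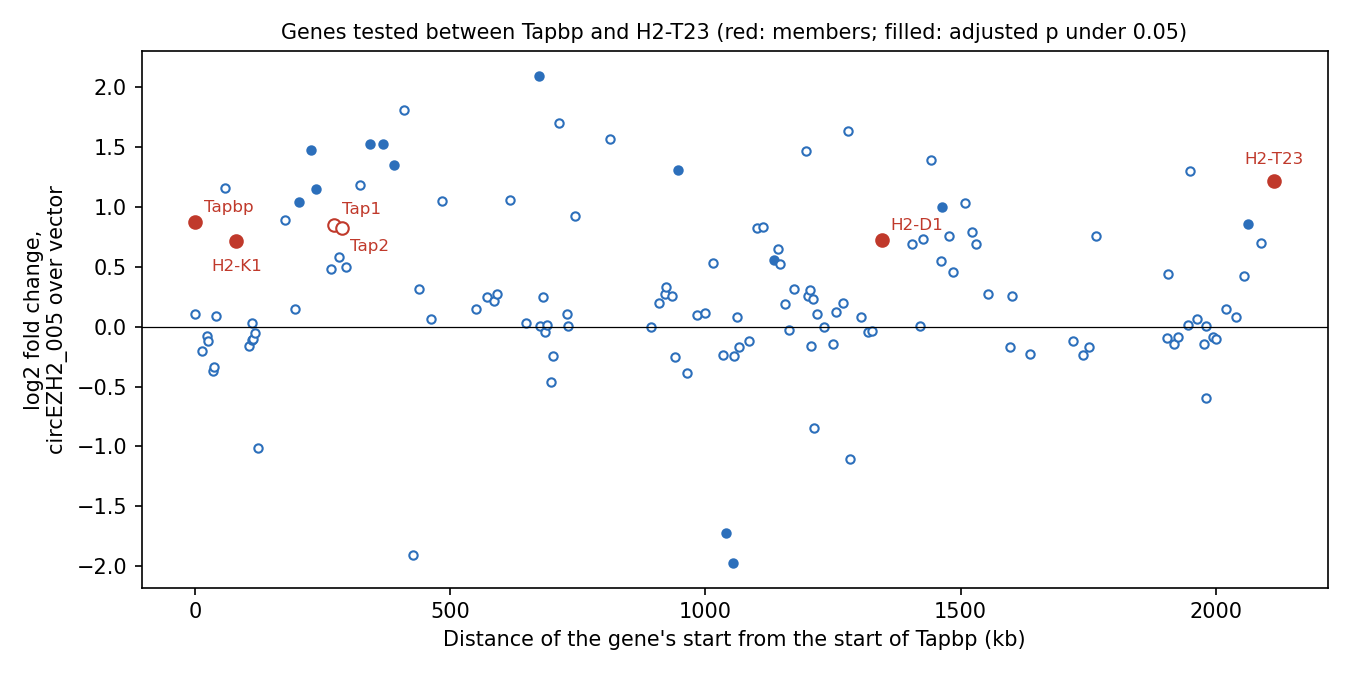
Log2 fold change of the tested genes between Tapbp and H2-T23 against the distance of each gene's start from the start of Tapbp in kb, with members in red, other genes in blue and filled symbols for an adjusted p-value under 0.05. The 6 members lie between 0.71 and 1.22, whereas the other genes spread on both sides of 0.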

How the data were processed

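For 6 samples the authors deposited the count of reads per gene, without normalization, and an FPKM value per gene, from libraries of polyadenylated RNA. The submitters' processing notes name cutadapt 1.9, HISAT2 2.0.4, StringTie 1.3.4d, DESeq2 and the mm10 build, without their roles. Groups came from the sample labels. The control columns carry a negative control name and were matched to the vector samples, the only control group, and 0 columns of sample values were unused. Ambiguous reads between heavy chain copies or overlapping genes may be divided by rules that are not given in the sources used here.

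Genes were filtered with filterByExpr, scaled with TMM (factors 0.931 to 1.04) and tested over the whole table in edgeR 4.0.16 (quasi-likelihood, R 4.3.3) with no covariate. Adjusted p-values are Benjamini-Hochberg over 18348 genes, with a threshold of 0.05. Depth was 71506487 to 79919893 counts per sample, so the spread between 3 samples per group, more than counting error, limits the precision. Ratios were tested by two-sided exact permutation. Members and gene lists were chosen with earlier results of these data known. Genes named were the 9 members, from each list the called genes (at most 5) and both ends of the log2 fold changes, up to 5 called neighbours in the MHC, and the 5 genes most like the members in profile. Psmb9 and the constitutive subunits were added for the ratios, and further leukocyte markers were named after their values were seen. Results for some single genes are not reported here, although the counts and sums over lists include them. Positions in the table were compared with GENCODE M21 (GRCm38), where 8 of the 9 members had the same start and end and Tapbp did not.

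Alternatives were DESeq2 1.42.0, limma 3.58.1 on log2(FPKM + 1) or log2(FPKM + 0.1) for genes averaging at least 0.5 FPKM, median-of-ratios scaling, no filter, the study's fold change, a replicate block, and each sample left out in turn. The tests were run on simulated data in which 200 genes had a log2 change of 1: edgeR found 37.5% of them over 17732 genes (12.8% of its calls were unchanged genes), DESeq2 55.5% (34.7%) over 18341 genes, and limma 32% (1.54%) over 13128 genes.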

Additional observations from a re-analysis of the deposited data

How the results depend on the processing

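Counts of called genes depended on the setting. For the members, 5 higher became 8 with DESeq2, 2 with the study's fold change and unadjusted p-value, 3 with median-of-ratios scaling, 3 with limma on log2(FPKM + 0.1), 4 with limma on log2(FPKM + 1) and 0 without the filter on low counts, and lay between 0 and 8 with 1 sample left out. Over all genes, 493 higher and 181 lower became 1588 and 701 with DESeq2, 1142 and 246 with the study's criterion, 323 and 319 with limma on log2(FPKM + 0.1), 371 and 364 on log2(FPKM + 1), 132 and 37 without the filter, and 26 to 1098 and 2 to 334 with 1 sample left out. With the replicate block 4 members, and 241 higher and 36 lower of all genes, were called. Same-numbered samples had correlations of -0.23, -0.039 and 0.092 in their deviations from the group means, so the numbers were not taken as pairs.

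In the order DESeq2, study's criterion, limma with 0.1, limma with 1, no filter and replicate block, the counts higher were 10, 2, 2, 2, 0 and 3 for other heavy chains (3 in the report, 0 to 8 with 1 sample left out), 5, 0, 0, 2, 0 and 0 for peptide generation (2, 0 to 5), 5, 4, 2, 2, 0 and 3 for class I induction (2, 0 to 6), 1, 0, 0, 0, 0 and 1 for ER chaperones and translocon genes (1, 0 to 1, and 0 with median-of-ratios scaling), 13, 16, 1, 3, 0 and 0 for leukocyte markers (1, 0 to 15), 1, 1, 0, 0, 0 and 0 for stromal markers (1, 0 to 1), 3, 0, 1, 1, 0 and 0 for epithelial markers (1, 0 to 2) and 34, 20, 13, 15, 2 and 13 for the MHC span with its members (15, 0 to 28). The counts lower were 5, 0, 3, 3, 0 and 0 for ER chaperones and translocon genes (1, 0 to 2), 3, 0, 1, 1, 1 and 1 for epithelial markers (2, 0 to 2) and 3, 4, 2, 2, 1 and 2 for the MHC span (2, 0 to 2). The cause of these differences was not tested.

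Of 474 single-gene values over 40 named genes, 292 kept their side of the threshold, 23 passed it newly, 156 no longer passed it and 3 changed sign; of the 108 for members, 64, 9 and 35 did so and 0 changed sign. Lyz2 was -0.019 with limma on log2(FPKM + 0.1) and between -0.27 and 0.56 with 1 sample left out, and Acta2 was between -1.13 and 0.12.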

Other observations

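Interferon lambda genes were too low to be tested. Ifnl2 had 0 counts in all vector samples and 15, 0 and 0 counts in circEZH2_005 samples 1 to 3, and Ifnl3 had 0, 0 and 3 counts in vector samples and 0, 7 and 0 counts in circEZH2_005 samples.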
